A study of Homo sapiens with 12 samples.

Results

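The miRNAs of the miR-192, miR-194 and miR-215 hairpins were followed in extracellular vesicles shed by 6 cancer cell lines. The members are the 4 rows of the deposited count table with these names, miR-192-5p, miR-194-5p, miR-194-3p and miR-215-5p, taken by name from 1636 mature miRNAs. All 4 had enough counts to be among the 318 miRNAs tested. The lines were RCM-1, SW1116, HT55, Hutu80, Car-1 and MDST8, each with 2 libraries and each labelled colorectal cancer, although Hutu80 is known as a line from a tumour of the duodenum. No line was treated. All grew in DMEM/F12 with fetal bovine serum and penicillin/streptomycin, and vesicles were taken from the medium by ultrafiltration and size-exclusion chromatography. The series names consensus molecular subtypes 2 and 4, but no label used here ties a line to a subtype, so the lines were compared with each other. Whether a line's 2 libraries stem from different cultures is not stated, so the p-values reflect only how far these libraries differ, and that spread may be technical.

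A miRNA is a short RNA that an Argonaute protein carries to messenger RNAs, which it recognises mainly through its seed, bases 2 to 8. miR-192, miR-194 and miR-215 are abundant in the epithelium of the intestine and are also made in liver and kidney. The human genome holds a pair of copies of the locus, one with miR-192 beside miR-194 and the other with miR-215 beside miR-194, and each is transcribed as 1 primary RNA from which the hairpins are cut. HNF1 factors, which drive epithelial programmes of gut and liver, and p53, which restrains the cell cycle after DNA damage, are known to raise transcription of these loci.

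The mature sequences are printed here because they decide which copy a count can be assigned to. Each runs 5′ to 3′ with the seed in capitals, from RefSeq on GRCh38.p14.
hsa-miR-192-5p: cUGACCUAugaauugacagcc
hsa-miR-215-5p: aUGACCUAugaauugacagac
hsa-miR-194-5p: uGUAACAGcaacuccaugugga
hsa-miR-194-3p: cCAGUGGGgcugcuguuaucug
miR-192-5p and miR-215-5p share the seed UGACCUA and 19 of their 21 bases. They differ by C1A and C20A, counted from the 5′ end, with the base of miR-192-5p first. A read that lacks the first base and stops before base 20 therefore matches both, and how such reads were counted is not given in the sources used here. No other row of the count table with a RefSeq sequence had the seed of miR-192-5p and miR-215-5p. The seeds of miR-194-5p (GUAACAG) and miR-194-3p (CAGUGGG) were each found in no other row with a RefSeq sequence.

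The hairpins show the layout of the copies, with annotated mature arms in capitals, and all 4 lie on the minus strand. MIR192 is at chr11:64891137-64891246 and MIR194-2 at chr11:64891355-64891439, and both overlap an exon of the non-coding host gene MIR194-2HG. MIR215 is at chr1:220117853-220117962 and MIR194-1 at chr1:220118157-220118241. These 2 lie within an intron of IARS2, a mitochondrial isoleucyl-tRNA synthetase gene on the opposite strand.
MIR194-2: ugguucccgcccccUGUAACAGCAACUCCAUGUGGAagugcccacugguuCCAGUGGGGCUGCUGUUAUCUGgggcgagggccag
MIR194-1: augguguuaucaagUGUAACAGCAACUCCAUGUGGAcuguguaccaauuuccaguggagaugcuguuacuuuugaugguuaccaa
MIR192: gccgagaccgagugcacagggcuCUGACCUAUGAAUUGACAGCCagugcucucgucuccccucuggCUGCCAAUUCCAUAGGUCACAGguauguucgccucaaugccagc
MIR215: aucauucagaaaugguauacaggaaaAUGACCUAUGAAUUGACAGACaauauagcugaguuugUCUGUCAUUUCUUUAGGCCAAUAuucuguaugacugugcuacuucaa
The 5′ arm of miR-194 is identical in both copies, so its counts cannot be divided between chromosomes 11 and 1. miR-194-3p is annotated on MIR194-2 alone. Its best ungapped match in the MIR194-1 hairpin, ccaguggAgAugcuguuaCUuU with the mismatches in capitals, differs at 5 of 22 bases (G8A, C10A, U19C, C20U and G22U, with the base of miR-194-3p first). miR-192-5p and miR-194-3p thus report on the chromosome 11 copy, miR-215-5p on the chromosome 1 copy, and miR-194-5p on both.

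Library totals ran from 71831 to 622800 counts, so 1 count was worth between 1.606 and 13.92 CPM, the count rescaled to 1 fixed total per library. Levels are given as CPM after trimmed-mean (TMM) scaling, and each log2 difference is given with its standard error (SE). Adjusted p-values come from edgeR's quasi-likelihood F-test with Benjamini-Hochberg adjustment over all 318 miRNAs, unless named otherwise. In vesicle RNA, fewer vesicles with a miRNA and fewer copies per vesicle cannot be told apart.

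RCM-1, SW1116 and HT55 vesicles held more of these miRNAs than Hutu80, Car-1 and MDST8 vesicles. Together the 4 members took 1.921% and 1.853% of the counts in the 2 RCM-1 libraries. The SW1116 libraries had 1.208% and 0.7772% and the HT55 libraries 0.7798% and 0.8815%. Hutu80 (0.2325% and 0.189%), Car-1 (0.2072% and 0.2519%) and MDST8 (0.1027% and 0.08865%) had less. All 4 members differed among the lines (4 of 4, where 68.2% of all tested miRNAs did). miR-192-5p was the most abundant member in all 12 libraries, miR-194-5p the next, and miR-194-3p and miR-215-5p were lower than both in each.

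miR-192-5p, which carries the seed shared with miR-215, ranked between 13 and 26 among all miRNAs in the 6 libraries of RCM-1, SW1116 and HT55 and between 60 and 90 in the other 6. RCM-1 libraries held 15622 and 13264 CPM of it, SW1116 libraries 10775 and 7768, and HT55 libraries 5593 and 4929. Hutu80 had 1225 and 1025 CPM, Car-1 914.3 and 1180, and MDST8 720.7 and 502.6. No library of the 3 high lines overlapped one of the 3 low lines, but these groups were named from the members' own levels. How many of all tested miRNAs split the lines in this way was not counted. The highest line mean was 23.6 times the lowest. The difference among lines had adjusted p = 1.99e-12. Of the 15 pairs of lines, 13 differed, and over all tested miRNAs 32.9% of the same comparisons were called. The 13 pairs became 11 with RLE factors, in DESeq2, when unfiltered, with the filter of 10 CPM and without the 10 most abundant miRNAs. Among the 13 was MDST8 against Hutu80 (-0.88 ± 0.30, adjusted p = 0.0214). That call ended in 10 of 12 fits with a library left out and in 5 of the 9 other settings (0.0628 to 0.799).

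In the order RCM-1, SW1116, HT55, Hutu80, Car-1, MDST8 for miR-192-5p, the widest gap between neighbours was from HT55 to Hutu80, at 2.23 ± 0.30 (SE, adjusted p = 1.81e-06). RCM-1 and SW1116 did not pass (0.64 ± 0.28, adjusted p = 0.147), but did with library totals as the only scaling (1.03, 0.014) and in limma-trend run on the log2 table (1.06, 0.018). Hutu80 and Car-1 were 0.10 ± 0.29 apart (adjusted p = 0.917). SW1116 was 0.82 ± 0.28 above HT55 (0.0413), a call that ended without HT55 replicate 1 (0.132) or 2 (0.212), SW1116 replicate 1 (0.278) or RCM-1 replicate 1 (0.0516), and with library totals (0.364) or in limma-trend (0.435). Car-1 was 0.77 ± 0.29 above MDST8 (0.0365). That call held in only 2 of 12 fits with a library left out, those without HT55 replicate 2 or MDST8 replicate 1, and the other 10 gave 0.0544 to 0.674. It also ended in 6 of the 9 other settings (0.0586 to 0.119).

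miR-194-5p, the arm that both copies give, followed the same order of lines. RCM-1 had 5373 and 6538 CPM, SW1116 had 5748 and 3946, and HT55 had 2823 and 2674. Far lower were Hutu80 (470.4 and 445.1 CPM), Car-1 (434.8 and 460) and MDST8 (339.7 and 314.1). Again the libraries of the 3 high lines did not overlap those of the 3 low lines, groups named from the members' own levels. The ratio between the extreme line means was 18.2 (adjusted p = 2.46e-12 among lines), and 11 of 15 pairs differed. HT55 was 2.59 ± 0.32 above Hutu80 (4.21e-07). RCM-1 and SW1116 (0.30 ± 0.28, 0.598) and Hutu80 and Car-1 (0.03 ± 0.31, 0.981) were not told apart. Car-1 and MDST8 were 0.45 ± 0.30 apart (0.25), a difference that passed with library totals (1.01, 0.0153) and in limma-trend (0.0157). SW1116 was 0.82 ± 0.29 above HT55 (0.0419), a call lost without HT55 replicate 1 (0.174) or 2 (0.204), MDST8 replicate 1 (0.0527) or 2 (0.0539) or SW1116 replicate 1 (0.314), and with library totals (0.392) or in limma-trend (0.473).

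miR-194-3p, the other arm of the chromosome 11 hairpin, had a different leading line. HT55 held 911.9 and 809.1 CPM, above RCM-1 at 385.7 and 328.2 and SW1116 at 216.6 and 351.1. Hutu80 had 109.4 and 100.8 CPM, Car-1 97.53 and 65, and MDST8 38.1 and 15.7. Both HT55 libraries lay above the other 10, while RCM-1 and SW1116 overlapped each other. Counts ran from 5 in MDST8 replicate 2 (95% Wilson interval 6.961 to 38.15 unscaled CPM) to 174 in HT55 replicate 2. The difference among lines had adjusted p = 2.65e-08, and 13 of 15 pairs differed. The 13 pairs became 10 in limma-trend and when unfiltered and 11 with library totals and in limma-voom, and stayed 13 in DESeq2.

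Among neighbours in that order for miR-194-3p, HT55 was 1.27 ± 0.43 above RCM-1 (adjusted p = 0.0471). That call ended without HT55 replicate 1 (0.191) or 2 (0.0687) or RCM-1 replicate 1 (0.128) or 2 (0.2), and in 3 of 9 other settings (0.0668 to 0.0972). SW1116 was 1.43 ± 0.49 above Hutu80 (0.0195), a call that ended without SW1116 replicate 2 (0.116), with library totals (0.352), in limma-voom (0.0735) and in limma-trend (0.358). Car-1 was 1.59 ± 0.54 above MDST8 (0.0204). This last call ended without Car-1 replicate 1 (0.234) or 2 (0.0812), MDST8 replicate 2 (0.257) or Hutu80 replicate 1 (0.0536) or 2 (0.0504), as well as in limma-voom (0.0708) and when unfiltered (0.0621). RCM-1 and SW1116 (0.737) and Hutu80 and Car-1 (0.826) did not pass.

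miR-215-5p, the member from chromosome 1, was the rarest. RCM-1 gave 39 and 97 counts, or 254.9 and 286.8 CPM. SW1116 had 58.06 and 75.23 CPM from 26 and 24 counts, and HT55 had 69.48 and 65.1 CPM from 8 and 14. The remaining libraries rested on 2 to 7 counts each, namely Hutu80 (21.88 and 25.2 CPM), Car-1 (8.127 and 30) and MDST8 (9.524 and 21.99). RCM-1 stood above every other library, and the 3 lowest lines overlapped one another. The difference among lines had adjusted p = 3.99e-05, and 7 of 15 pairs differed. That count of pairs was 4 without HT55 replicate 2 or without either library of SW1116, Hutu80 or RCM-1, and 9 without Car-1 replicate 2. It was 3 in DESeq2, in limma-trend and when unfiltered, and 4 with the filter of 10 CPM. RCM-1 was 2.01 ± 0.67 above HT55 (adjusted p = 0.0466). This was lost in 8 of 12 fits that left out 1 library (0.0568 to 0.301), namely those without either library of HT55, SW1116, Hutu80 or RCM-1, and in 6 of the 9 other settings (0.0589 to 0.161). No other neighbours in its order passed (0.155 to 0.996), and with 2 to 7 counts per library the differences among Hutu80, Car-1 and MDST8 were not detectable at this depth.

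**Figure D1:**
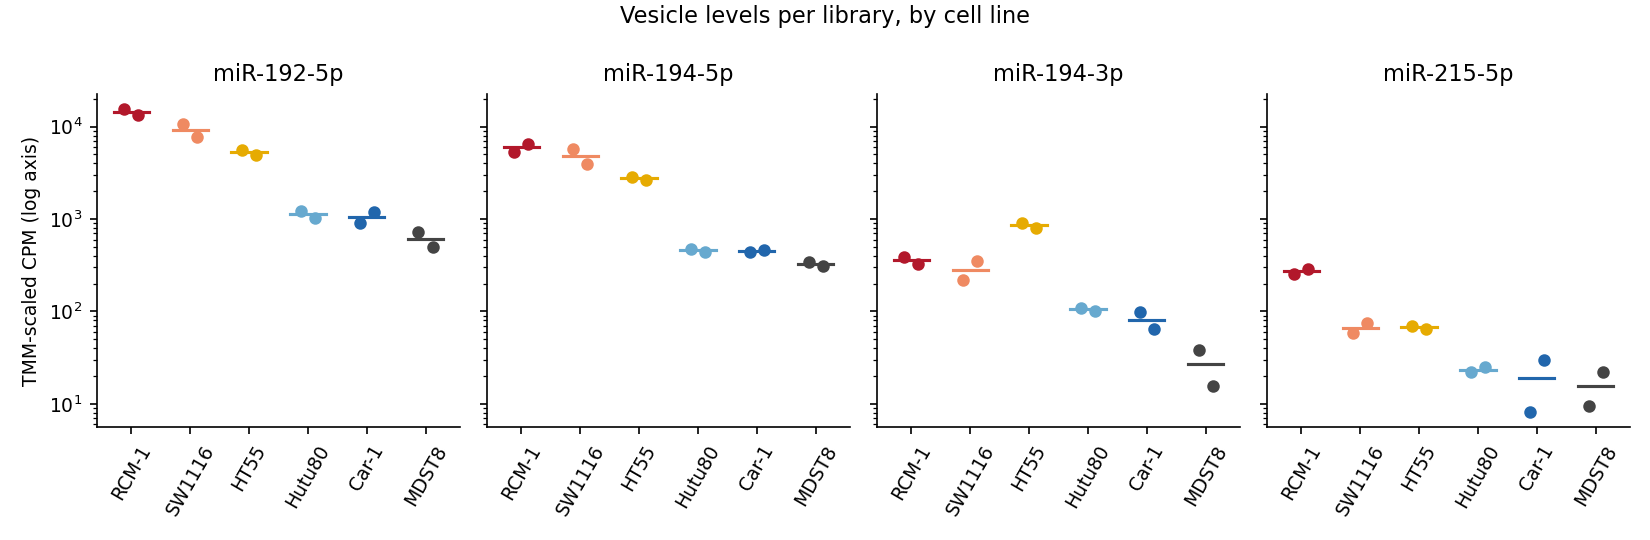
TMM-scaled CPM of the 4 members (log axis) in each of the 12 libraries, as points by cell line, with a bar at the mean of the 2 libraries. miR-192-5p, miR-194-5p and miR-215-5p have their highest mean in RCM-1, and miR-194-3p in HT55, where the lower library has 809.1 CPM against at most 385.7 elsewhere.

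The other annotated arms were near the detection limit. miR-192-3p, the 3′ arm of MIR192, had 0 and 10 counts in HT55, 13 and 6 in SW1116, 8 and 3 in RCM-1, 2 and 0 in Hutu80, and 1 in each Car-1 library. It had 0 counts in both MDST8 libraries, which allows up to 8.827 and 9.778 CPM (3 counts), and it was not among the tested miRNAs. No row of the table carries the name of miR-215-3p, so the arms of MIR215 were not compared here.

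Each line was then set against the mean of the other 5. In RCM-1 all 4 members were higher (4 of 4, against 21.1% of all tested miRNAs). miR-215-5p rose by 3.09 ± 0.44 (adjusted p = 5.25e-06), miR-192-5p by 2.83 ± 0.18, miR-194-5p by 2.61 ± 0.19 and miR-194-3p by 1.33 ± 0.32 (0.00217). In SW1116 3 of 4 were higher, against 17.6% of all tested. They were miR-194-5p (2.25 ± 0.19, or 1.60 with library totals), miR-192-5p (2.06 ± 0.19, or 1.41) and miR-194-3p (0.93 ± 0.32, adjusted p = 0.0287). The last call ended without SW1116 replicate 2 (0.416), with library totals (0.57) and in limma-trend (0.595). HT55 also had 3 of 4 higher, against 13.8% of all tested, and there miR-194-3p led at 2.85 ± 0.29 (2.35e-08), with 1.27 ± 0.21 for miR-194-5p and 1.08 ± 0.20 for miR-192-5p. miR-215-5p did not pass in SW1116 (0.66 ± 0.50, 0.361) or HT55 (0.67 ± 0.55, 0.411), and in SW1116 it was -0.01 with library totals.

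In MDST8 all 4 were lower (4 of 4, against 22.3% of all tested miRNAs). miR-194-3p fell by 3.12 ± 0.46 (adjusted p = 4.47e-06), miR-192-5p by 2.65 ± 0.27, miR-194-5p by 2.42 ± 0.27, and the difference of miR-215-5p was -1.79 ± 0.65 (0.028). Without MDST8 replicate 1 miR-194-3p was at -3.83, and without MDST8 replicate 2 miR-215-5p was at -2.46 (0.0437). The miR-215-5p call ended without Car-1 replicate 2 (0.118), MDST8 replicate 1 (0.266) or Hutu80 replicate 1 (0.0665) or 2 (0.0781), as it did in DESeq2 (0.0643) and when no filter was set (0.113). Car-1 had 3 of 4 lower, against 13.5% of all tested. There miR-194-5p fell by 1.87 ± 0.26 (4.95e-06), miR-192-5p by 1.72 ± 0.25 (8.21e-06) and miR-194-3p by 1.21 ± 0.40 (0.019). With library totals these differences of miR-194-5p and miR-192-5p in Car-1 were smaller, at -1.24 and -1.08. The call of miR-194-3p in Car-1 ended without Car-1 replicate 1 (0.0704) or 2 (0.14), with library totals (0.255), no filter (0.14), limma-voom (0.0659) and limma-trend (0.222). miR-215-5p in Car-1 (-1.53 ± 0.67, 0.0794) passed only without Car-1 replicate 2 (0.039). In Hutu80 2 of 4 were lower, against 16.7% of all tested, with miR-194-5p down by 1.84 ± 0.27 (5.49e-06) and miR-192-5p by 1.60 ± 0.25 (1.59e-05). miR-194-3p (-0.78 ± 0.42, 0.154) and miR-215-5p (-1.10 ± 0.75, 0.272) did not pass there. The members' median log2 difference was highest in RCM-1 (2.72), followed by SW1116 (1.49), HT55 (1.17), Hutu80 (-1.35), Car-1 (-1.62) and MDST8 (-2.53), where the median over all tested miRNAs lay between -0.32 and 0.09.

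**Figure D2:**
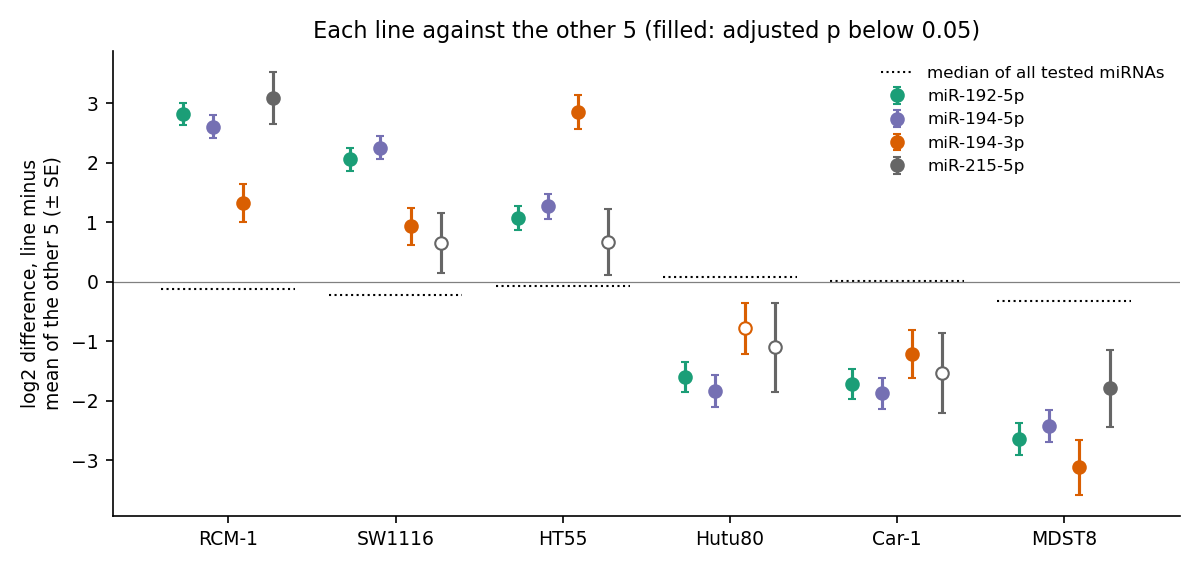
Log2 difference of each line from the mean of the other 5 (± SE) for the 4 members, filled where the adjusted p is below 0.05, with a dotted line at the median of all 318 tested miRNAs. RCM-1, SW1116 and HT55 lie above 0 and the other 3 lines below it for each member, and miR-194-3p is set apart upward in HT55 (2.85) and is lowest in MDST8 (-3.12).

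At the extremes, MDST8 and RCM-1 differed in 4 of 4 members (42.1% of all tested), by 3.70 to 4.56 on the log2 scale (miR-194-3p by 4.42 in place of 3.70 without MDST8 replicate 1, and miR-215-5p by 4.73 in place of 4.06 without MDST8 replicate 2). Hutu80 and Car-1 differed in 0 of 4 members in edgeR (18.2% of all tested), with 0 at an unadjusted p below 0.05 and 0 in DESeq2 and in limma-voom. Fitted differences there were -0.36 to -0.03, Car-1 minus Hutu80.

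The copies of the locus were compared by ratios of counts within a library, which need no scaling between libraries. miR-215-5p made up 1.61% and 2.12% of the summed counts of miR-192-5p and miR-215-5p in RCM-1. SW1116 had shares of 0.536% and 0.959%, and HT55 of 1.23% and 1.3%. Hutu80 gave 1.75% and 2.4%, Car-1 0.881% and 2.48%, and MDST8 1.3% and 4.19%. Across all 12 libraries, then, the chromosome 11 product supplied over 95% of the counts with this seed. Wilson intervals (95%) were narrow in RCM-1 (1.18 to 2.19% and 1.74 to 2.58%) and SW1116 (0.366 to 0.784% and 0.645 to 1.42%), which did not overlap except for SW1116 replicate 2 with RCM-1 replicate 1. They were wide in MDST8, at 0.445 to 3.76% and 2.05 to 8.4%. Such an observed share also holds any bias of library preparation between the 2 sequences, which was not tested.

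A one-way F of the log2 ratio over lines was tested against all 10395 ways to pair the 12 libraries (exact permutation test, one-sided, smallest possible p = 9.6e-05), with adjustment over 6 ratios. The ratio of miR-192-5p to miR-215-5p did not pass (exact permutation p = 0.191, adjusted p = 0.286), with line means from 5.22 ± 1.13 (SD, n = 2) in MDST8 to 7.08 ± 0.60 in SW1116 on the log2 scale. The chromosome 1 product was thus not shown to vary from line to line apart from the chromosome 11 product. Whether part of the miR-215-5p counts came from reads of miR-192-5p was not tested. The ratio of miR-215-5p to miR-194-5p gave an exact permutation p of 0.113 (adjusted p = 0.226), with line means from -6.14 ± 0.65 in SW1116 to -4.03 ± 0.13 in Hutu80.

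miR-192-5p and miR-194-5p, neighbours on chromosome 11, kept a narrow ratio. Counts of miR-192-5p per count of miR-194-5p were 2.91 and 2.03 in RCM-1, 1.87 and 1.97 in SW1116, and 1.98 and 1.84 in HT55. Hutu80 had 2.6 and 2.3, Car-1 2.1 and 2.57, and MDST8 2.12 and 1.6. The range of these ratios, from 1.6 to 2.91, set against line means that spanned a factor of 23.6 for miR-192-5p and 18.2 for miR-194-5p. The log2 ratio had line means from 0.88 ± 0.29 (SD, n = 2) in MDST8 to 1.28 in Hutu80 and RCM-1, and lines were not told apart (exact permutation p = 0.315, adjusted p = 0.315). With miR-215-5p added to miR-192-5p the adjusted exact permutation p was also 0.315. Over the 12 libraries, log2 levels of miR-192-5p and miR-194-5p had a Pearson r of 0.991, given as a description because libraries of a line share their source and all share the scaling. The r with miR-192-5p was 0.899 for miR-215-5p and 0.824 for miR-194-3p.

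**Figure D3:**
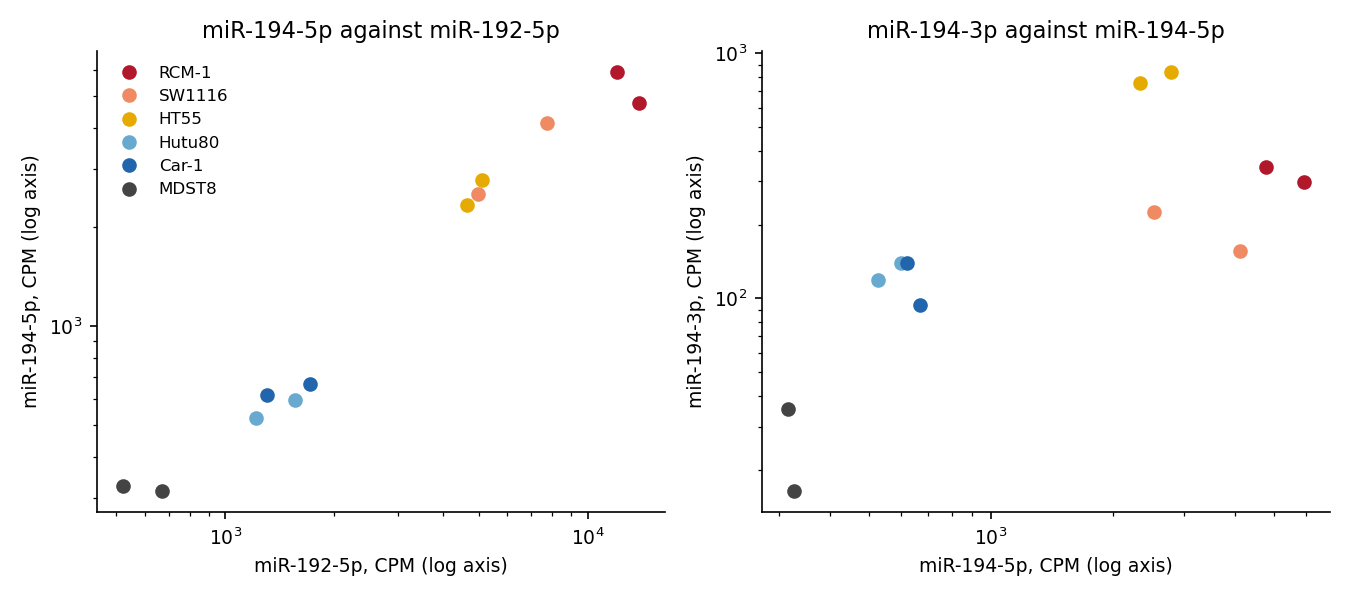
Unscaled CPM of miR-194-5p against miR-192-5p (left) and of miR-194-3p against miR-194-5p (right), both axes log, 1 point per library coloured by line. The left points lie along a single diagonal, with RCM-1 at one end and MDST8 at the other, while on the right the HT55 libraries (756.7 and 841.4 CPM of miR-194-3p) stand above all RCM-1 and SW1116 libraries, of which 3 had more miR-194-5p (4133 to 5935 CPM) than either HT55 library (2342 and 2780) and SW1116 replicate 2 had 2526 CPM.

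The ratio of the miR-194 arms had a wider range, from 3.1 counts of miR-194-5p per count of miR-194-3p (HT55 replicate 1) to 26.5 (SW1116 replicate 1). miR-194-3p made up 24.4% (95% Wilson interval 20.6 to 28.7%) and 23.2% (20.3 to 26.4%) of the counts of both arms in HT55. In RCM-1 it made up 6.7% (5.23 to 8.54%) and 4.78% (3.98 to 5.73%), and in SW1116 3.63% (2.99 to 4.41%) and 8.17% (6.83 to 9.74%). The intervals of HT55 lay clear of those of RCM-1 and SW1116. Those of the SW1116 libraries lay clear of each other, so the intervals, which cover counting error only, do not hold the spread between libraries. Hutu80 was at 18.9% and 18.5%, Car-1 at 18.3% and 12.4%, and MDST8 at 10.1% and 4.76%, each on 5 to 24 counts of miR-194-3p and with intervals as wide as 10.6 to 31.4%.

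Between HT55 and 2 other lines the arms went opposite ways (20.4% of all tested miRNAs differed between HT55 and SW1116, and 13.5% between HT55 and RCM-1). From HT55 to SW1116, miR-194-5p was higher in SW1116 by 0.82 ± 0.29 (adjusted p = 0.0419, with the losses given above), while miR-194-3p was higher in HT55 by 1.60 ± 0.43 (0.00982). The latter call ended without HT55 replicate 1 (0.0582) or SW1116 replicate 1 (0.115). Against RCM-1 the pattern was alike, with miR-194-5p lower in HT55 by 1.12 ± 0.29 (0.0103) and miR-194-3p higher by 1.27 ± 0.43 (0.0471, with the losses given above). The miR-194-5p call there ended without HT55 replicate 1 (0.0855) or 2 (0.249) or RCM-1 replicate 2 (0.105). Directions of all 4 differences held in every alternative.

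Over all 6 lines, the ratio of miR-194-5p to miR-194-3p ran from a log2 mean of 1.67 ± 0.07 (SD, n = 2) in HT55 to 4.10 ± 0.87 in SW1116 (exact permutation p = 0.0201). Adjusted over the 6 ratios it did not pass in this exact permutation test (0.0603). It passed with ranks in place of values (0.0335) and did not with a replicate block (0.137). The ratio of miR-192-5p to miR-194-3p, which involves the chromosome 11 copy alone, ran from 2.61 in HT55 to 5.33 in RCM-1 (exact permutation p = 0.00991, adjusted p = 0.0595). It passed with ranks (exact permutation, adjusted p = 0.0335) but not with a replicate block (0.137).

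**Figure D4:**
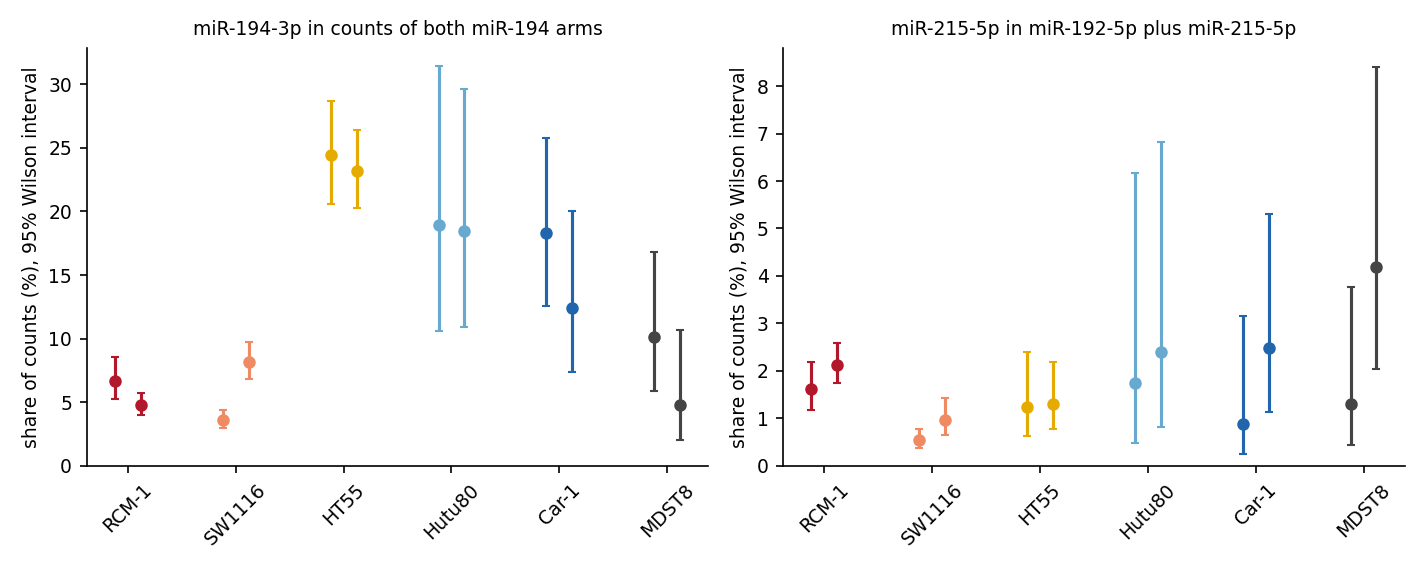
Share of miR-194-3p in the counts of both miR-194 arms (left) and of miR-215-5p in the summed counts of miR-192-5p and miR-215-5p (right), in percent, 1 point per library by line with its 95% Wilson interval. HT55 libraries, at 24.4% and 23.2%, lie above RCM-1 and SW1116 on the left, and on the right every share is at or below 4.19%.

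MIR194-2HG hosts miR-192-5p, the most abundant member, and its promoter is printed to show where a motif of HNF1, a known regulator of the locus, lies. It covers 300 bases at chr11:64893400-64893699 on the minus strand (RefSeq, GRCh38.p14), printed in the direction of transcription with an HNF1 match in capitals.
MIR194-2HG: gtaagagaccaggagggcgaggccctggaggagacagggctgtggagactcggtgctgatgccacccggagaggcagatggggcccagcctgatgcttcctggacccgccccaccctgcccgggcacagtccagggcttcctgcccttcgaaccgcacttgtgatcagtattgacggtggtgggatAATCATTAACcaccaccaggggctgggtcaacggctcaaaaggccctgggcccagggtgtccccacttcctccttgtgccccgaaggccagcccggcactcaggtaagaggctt
The HNF1 motif, GTTAAT followed by any base and ATT, was searched on both strands and found 1 time, on the strand opposite to the gene and beginning 64 bases before the start site. It occurs in 0.322% of 35116 promoters of the same length. CAAAGTCCA, the core of an HNF4 site (in 0.384% of promoters), and the p53 half-site (6.63%), both searched on both strands, were not found in this window. These matches describe letters only, and no binding was measured here.

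Other miRNAs of gut epithelium were set beside the members from a list of 6, of which 5 were tested and 5 differed among the lines (68.2% of all tested did). In RCM-1 4 of 5 were higher (21.1% of all tested) and in HT55 3 of 5 (13.8%), with 1 lower (33 of all 318). In MDST8 4 of 5 were lower (22.3% of all tested) and 1 higher (22.0%). miR-375-3p, known from enteroendocrine cells and pancreatic islets, stood at 5767 and 6100 CPM in HT55 and 6125 and 8022 in RCM-1, against 254 and 185 in MDST8. Unlike miR-192-5p it was not called in SW1116 (0.10 ± 0.23, adjusted p = 0.809). Among the HOX-cluster miRNAs of the list, miR-10a-5p had its highest line mean in SW1116, and miR-196a-5p and miR-196b-5p had theirs in HT55. There miR-196b-5p was at 1763 and 949 CPM, against 922 and 813 in RCM-1. The lead of miR-196a-5p rested on 1 library, since HT55 had 2814 and 1223 CPM where RCM-1 had 1876 and 1354 and SW1116 994 and 1310. miR-31-5p, often raised in colorectal tumours, ran against the rest and was 2.73 ± 0.25 higher in MDST8 (1.38e-09). In SW1116 1 of 5 was higher (17.6% of all tested), miR-10a-5p, which lies in the HOXB cluster (1.76 ± 0.18, 3.29e-08). Car-1 had 3 of 5 lower (13.5% of all tested), and Hutu80 3 of 5 lower (16.7%) with miR-31-5p higher (73 of all 318). miR-147b-3p was not tested, with 0 counts in 9 libraries.

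The miR-200 family keeps epithelial cells from a mesenchymal state by repressing ZEB1 and ZEB2. All 5 of its tested miRNAs were higher in RCM-1 (21.1% of all tested) and in SW1116 (17.6%), and 4 of 5 in HT55 (13.8%). In MDST8 (22.3% of all tested lower) and in Hutu80 (16.7%) 5 of 5 were lower. In Car-1 2 of 5 were higher and 0 lower, where 21.1% of all tested miRNAs were higher. The higher ones were miR-200a-3p (1.5 ± 0.25, adjusted p = 4.28e-05) and miR-200b-3p (0.79 ± 0.21, 0.00513). miR-200a-3p was at 2589 and 1105 CPM in Car-1, on either side of the range of HT55, SW1116 and RCM-1 (1410 to 2209 CPM). miR-200c-3p was not called in Car-1 (-0.47 ± 0.25, 0.161), where its 14089 and 26209 CPM lay below each library of those 3 lines (68502 or more). miR-141-3p was not called in Car-1 either (-0.43 ± 0.50, 0.561), with 97.5 and 35 CPM against 130 or more. miR-429 in Car-1 (236 and 135 CPM) did not pass (0.89 ± 0.39, 0.0754).

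p53 is known to induce other miRNAs too, and 4 of 11 listed here were tested, all 4 of which differed among lines, as did 68.2% of all tested miRNAs. In MDST8, where the members were lowest, 3 of 4 were higher, against 22.0% of all tested miRNAs. miR-34a-5p, the best known p53 target among miRNAs, was at 3251 and 2174 CPM in MDST8, against 170 and 186 in RCM-1, 299 and 113 in SW1116 and 252 and 242 in HT55. It was 3.30 ± 0.27 higher in MDST8 (adjusted p = 3.56e-10) and fell by 1.40 ± 0.38 in RCM-1 (0.00535). miR-107 was 1.40 ± 0.35 higher in MDST8 (0.00197), and miR-34c-5p was found mainly there (21 and 6 counts) and in Car-1 (10 and 4). miR-143-3p, also a miRNA of smooth muscle and stroma, was lower in SW1116 (123 and 103 CPM, 0.0475) and was not called in the other lines. p53 status was not measured here.

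Serum in the medium can bring its own miRNAs, and miR-192 is also a liver miRNA, so markers of other sources were read in the same libraries. miR-122-5p, the defining liver miRNA, had 2 to 23 counts per library and did not differ among lines (adjusted p = 0.142), and miR-122-3p was at 0 in every library. miR-122-5p was at 43.4 and 107 CPM in HT55, 71.9 and 32.5 in RCM-1, and 56.9 and 65 in Car-1. Hutu80 had 32.8 and 33.6 CPM, SW1116 31.3 and 6.27, and MDST8, the lowest line for the members too, 22.2 and 9.42. Its part in the members' differences was not tested. Of the red cell and serum list, 1 of 3 tested miRNAs differed among lines, where 68.2% of all tested miRNAs did. This was miR-486-5p, at 4751 and 4106 CPM in HT55, 2808 and 3205 in Car-1, and 3271 and 2444 in Hutu80. RCM-1 had 1948 and 1251 CPM of it, SW1116 1679 and 1263, and MDST8 1486 and 1159. Like miR-192-5p, miR-486-5p was higher in HT55 (1.20 ± 0.22, 0.000112) and lower in MDST8 (-0.89 ± 0.25, 0.00553). Unlike miR-192-5p, it was lower in SW1116 (-0.71 ± 0.25, 0.0313) and not called in RCM-1 (0.0767). Its part in the members' differences was not tested. miR-451a, which defines red cells, was at 145 to 399 CPM throughout. Summed over the list, unscaled levels ran from 917 to 1979 CPM in RCM-1 and SW1116 and from 1476 to 5234 CPM elsewhere. Among leukocyte miRNAs 1 of 4 differed (68.2% of all tested did). This was miR-150-5p, which is a lymphocyte miRNA and was highest in RCM-1 (569 and 733 CPM, 2.81 ± 0.32 higher, 1.43e-07). The sum of the leukocyte miRNAs was 174.6 to 1386 CPM over all libraries, with 1021 and 1015 in RCM-1. In the list of mesenchymal and muscle miRNAs, 2 of 5 were tested and 1 differed (68.2% of all tested did), the muscle miRNA miR-1-3p. Like miR-192-5p, miR-1-3p was higher in HT55 (547 and 460 CPM) and RCM-1 (503 and 426) and lower in MDST8 (50.8 and 34.6) and Hutu80. Unlike miR-192-5p, it was not called in SW1116 (112 and 370 CPM, 0.28 ± 0.37, 0.628) or Car-1 (207 and 380 CPM, 0.64 ± 0.37, 0.202). The part of miR-1-3p in the members' differences was not tested. miR-214-3p had at most 1 count in any library.

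The miRNAs whose levels were most like each member were ranked by Pearson r of log2(scaled CPM + 1) over the 12 libraries. The ranking took 198 tested miRNAs with a mean of at least 100 CPM and left out the members. Libraries of a line share their source, so these values are descriptions. For miR-192-5p they were miR-224-5p (0.988), miR-335-3p (0.974), miR-203a-3p (0.959), miR-7-5p (0.924) and miR-584-5p (0.917). miR-194-5p had the same first 3, at 0.982, 0.969 and 0.964, then miR-584-5p (0.933) and miR-10a-5p (0.925). miR-224-5p had a mean of 10433 CPM in RCM-1, then 6053 in SW1116 and 4797 in HT55. Hutu80 (833), Car-1 (727) and MDST8 (433) were far below these.

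miR-194-3p had other companions, led by both arms of miR-1247 (0.947 for miR-1247-5p and 0.939 for miR-1247-3p), then miR-196b-5p (0.937), miR-375-3p (0.909) and miR-203a-3p (0.901). miR-1247-5p was at a mean of 2590 CPM in HT55, 718 in RCM-1, 508 in SW1116 and at most 99.2 in the other 3 lines. Its highest line was HT55, as for miR-194-3p. miR-194-5p, left out of the ranking as a member, had an r of 0.815 with miR-194-3p. For miR-215-5p the closest were miR-224-5p (0.9), miR-320a-3p (0.887), miR-335-3p (0.867), miR-584-5p (0.856) and miR-375-3p (0.852).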

How the data were processed

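Small RNA was measured in vesicles of 6 cell lines, with 2 libraries per line. The authors deposited a table of whole-number counts per mature miRNA, not normalised, and a table of log2 values. In the deposited log2 table every value equals log2(CPM + 1) of the counts (largest difference 5e-14). Reads were placed on hg38, per the submitters' processing notes. Which aligner and counter were used, and whether molecular identifiers were collapsed, is not given in the sources used here, so intervals cover counting error only.

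Counts were tested with edgeR 4.0.16 (filterByExpr by line, TMM factors of 0.641 to 1.46, robust quasi-likelihood F-test, 1 mean per line over all 12 libraries). This kept 318 of 1636 miRNAs, holding 99.71% of 3141138 counts. Benjamini-Hochberg adjustment ran over the 318 per comparison, at 0.05. The SE is the log2 difference divided by the square root of F. Within-library log2 ratios (0.5 added to each count) were tested by an exact permutation of a one-way F. Shares carry 95% Wilson intervals.

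Alternatives were RLE factors, library totals, no filter, a filter of 10 CPM in 2 libraries, DESeq2 1.42.0, limma-voom and limma-trend (limma 3.58.1), a replicate block, removal of the 10 most abundant miRNAs, and each library left out in turn. For ratios they were a pseudocount of 1, ranks, the block and each library left out. Members, lists and tests were chosen with earlier results of these data known. The text names members and list members (up to 6 per list, by mean CPM). It also names, for each member, the 5 tested miRNAs outside the members that correlate best with it at a mean of at least 100 CPM. Sequences are from RefSeq (GRCh38.p14) and gene overlaps from GENCODE 29 (GRCh38), and RefSeq held a mature sequence for 1470 of the 1636 names.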

Additional observations from a re-analysis of the deposited data

How the results depend on the processing

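Library totals as the only scaling moved the median of all tested miRNAs by 0.622 in Car-1, -0.666 in SW1116, 0.349 in Hutu80 and -0.168 in RCM-1 (log2), and RLE factors moved it by 0.124 in MDST8. The share of called miRNAs that were higher went with it, from 60.9% to 90.7% in Car-1, 51.4% to 21.2% in SW1116, 57.9% to 74.0% in Hutu80 and 58.8% to 47.3% in RCM-1. In limma-trend that share was 41.2% in HT55, against 57.1%. All 4 members differed among the lines in each of the 21 alternatives per member (84 values, adjusted p at most 0.00645). For each line against the other 5, 16 of 504 values changed their side of the threshold. For pairs of lines 130 of 1260 did, and no difference called on either side changed sign, while 48 uncalled ones did. With 1 library left out, the count of miRNAs called was 219 to 242 among the lines (217 with all libraries), 51 to 108 in HT55 (77), 67 to 120 in Car-1 (110), 113 to 162 in MDST8 (141), 49 to 110 in SW1116 (109), 90 to 135 in Hutu80 (126) and 75 to 127 in RCM-1 (114), and 1408 to 1542 over all pairs (1569). The lone library of a line is then assumed to vary like the others.

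Adjusted exact permutation p-values of the ratios, with 1 library left out, were 0.0384 to 0.164 for miR-194-5p to miR-194-3p, 0.0346 to 0.164 for miR-192-5p to miR-194-3p, 0.101 to 0.517 for miR-192-5p to miR-215-5p and 0.0625 to 0.517 for miR-215-5p to miR-194-5p. With ranks both ratios that involve miR-194-3p had 0.0335. No label used here says what same-numbered libraries of different lines share. Their deviations from the line means correlated at -0.228 to 0.266, and 5 of 15 values were above 0.1. Whether they share a batch cannot be told from these values. The replicate block gave 223 miRNAs called among the lines and, with libraries paired only across replicate numbers, 0.137 for both ratios with miR-194-3p, so no ratio passed. It brought miR-215-5p past the threshold for SW1116 against Car-1 (0.0486) and changed no other call of the members. Depth limits miR-215-5p most, with 2 to 7 counts in each library of Hutu80, Car-1 and MDST8.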
